A study of Mus musculus with 4 samples.

Results

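Members of the C/EBP, IRF and related families that direct the myeloid lineages were followed across 4 Affymetrix whole-transcript arrays of mouse blood progenitors and their T lineage progeny. The factors are Cebpa, Cebpb, Cebpe, Irf4, Irf8, Batf3 and Zbtb46, in all 7 genes of the 19938 with a probe set of their own. Each was matched by its symbol to the annotation of the array, and each had exactly 1 probe set, so no choice between probe sets was needed. All cells came from wild-type C57BL/6 bone marrow. In the first group, called Tcf1 cells (2 arrays labelled as biological replicates), lymphoid-primed multipotent progenitors (LMPPs, lineage marker negative, Sca+, kit+ and Flt3 high) were given the Tcf1-VEX retrovirus. OP9 stroma, derived from bone marrow and carrying no added Notch ligand, supported them until a sort for Thy1+CD25+ cells on day 10. In the second group, called control cells (1 array), LMPPs were given the VEX vector alone, grown on OP9 stroma that carries the Notch ligand DL4, and sorted by the same gate on the same day. The third group was pooled LMPPs (1 array) taken after 48 hours in stimulation medium, which holds IL-3, IL-6, SCF and Flt3 ligand. Tcf1 and control cells had been through the same medium during transduction, up to a sort for the VEX reporter at 48 hours. The medium on stroma held IL7 and Flt3 ligand, and the sort on day 10 also removed cells with the myeloid surface proteins Mac1 or Gr1. Tcf1 and control cells thus differed in vector and in stroma together, and both differed from LMPPs in time, later medium, stroma, sort gates and, as far as the labels state, retrovirus. The effects of these cannot be told apart.

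The factors belong to a network that turns progenitors towards granulocytes, monocytes and dendritic cells. C/EBP proteins are basic leucine zipper factors: C/EBP alpha, from Cebpa, is needed for the step into granulocyte-monocyte progenitors, C/EBP beta for granulopoiesis under stress and for macrophages, and C/EBP epsilon for late granulocyte maturation. Irf8 directs monocyte, type 1 dendritic and plasmacytoid dendritic cell development and restrains neutrophil development, and its relative Irf4 acts in type 2 dendritic cells, B cells and activated T cells. Both IRF proteins bind DNA largely through partners, among them PU.1, the product of Spi1, and BATF family proteins such as Batf3, which is required for type 1 conventional dendritic cells. Zbtb46 marks conventional dendritic cells and their committed precursors. Early T cell progenitors still hold part of this network, which is normally shut as they commit.

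Irf8, Cebpa and Irf4 spanned at least 1 log2 unit over the 4 arrays. Their promoter windows are shown because these 3 genes carry the differences described below. The windows run from 250 bases before to 50 bases after the RefSeq start on GRCm38.p6, all on the plus strand: Irf8 at chr8:120736108-120736407, Cebpa at chr7:35119043-35119342 and Irf4 at chr13:30748983-30749282. Capitals mark the core of a TATA box, with the letters TATAAA, and, in Irf8, TTCNNNGAA, the palindrome that STAT proteins bind (GAS).
Irf8: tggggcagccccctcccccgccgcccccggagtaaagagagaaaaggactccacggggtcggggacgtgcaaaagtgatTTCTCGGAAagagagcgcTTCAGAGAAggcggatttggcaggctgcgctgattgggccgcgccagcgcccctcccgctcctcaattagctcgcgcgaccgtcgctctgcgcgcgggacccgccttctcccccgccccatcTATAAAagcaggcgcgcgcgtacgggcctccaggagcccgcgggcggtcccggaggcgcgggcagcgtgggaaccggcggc
Cebpa: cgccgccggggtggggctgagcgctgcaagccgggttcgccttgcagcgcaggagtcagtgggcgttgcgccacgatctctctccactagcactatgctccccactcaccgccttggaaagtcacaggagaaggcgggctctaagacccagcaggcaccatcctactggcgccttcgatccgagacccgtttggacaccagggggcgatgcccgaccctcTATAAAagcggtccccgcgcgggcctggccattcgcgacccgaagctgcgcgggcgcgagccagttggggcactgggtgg
Irf4: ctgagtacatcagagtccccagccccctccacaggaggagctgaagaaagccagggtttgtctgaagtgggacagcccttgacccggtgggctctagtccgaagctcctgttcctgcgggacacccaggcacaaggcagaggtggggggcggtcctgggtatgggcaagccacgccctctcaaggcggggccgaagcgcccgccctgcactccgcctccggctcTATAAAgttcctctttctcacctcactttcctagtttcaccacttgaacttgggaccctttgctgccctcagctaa

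TATAAA began 31 bases before the start in Irf8, 30 in Cebpa and 26 in Irf4. The Irf8 window also held 2 GAS matches that do not overlap, TTCTCGGAA and TTCAGAGAA, which began 171 and 153 bases before the start. RefSeq windows were found for 6 of the 7 factors, 7 windows in all since Irf8 has 2 starts. Of these, 4 held TATAAA, against 13.6% of 32851 windows of the same length, and the match in Cebpb began 22 bases after its start. The GAS letters were in 2 of the 7 windows (Irf8 and Batf3), against 8.3% of all windows. Both strands were searched for 6 further motifs: TTGCNNAA (C/EBP, in 10.8% of all windows), the core of the interferon-stimulated response element (IRF, 3.44%), the joint Ets and IRF composite element (EICE, which PU.1 and an IRF bind together, 2.72%), CTTTGAA (TCF and LEF factors, Tcf1 among them, 5.14%), GAGGAAG (PU.1, 13.6%) and TGANTCA (AP-1 and BATF, 7.81%). None of these 6 was in the windows of Irf8, Cebpa or Irf4. GAGGAAG was in that of Batf3 and TGANTCA in that of Zbtb46. A match is a string of letters only, and a missing one says nothing of the factor.

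As deposited, the values are log2 signals from RMA (a background correction, quantile normalization and summary over the probes of a set). Array medians over all 35399 probe sets ran from 7.26 to 7.29, and over the 19938 genes from 7.47 to 7.59. The Tcf1 pair differed with an SD of 0.24 across genes, and pairs of different groups with SDs of 0.42 to 0.55. Precision is limited by how few arrays there are: the spread comes from the Tcf1 pair alone, and the lone control and LMPP arrays were taken to vary as that pair did. Il2ra, which encodes CD25, read 12.91 and 12.99 in Tcf1 cells, 13.64 in control cells and 6.88 in LMPPs. Cd3e, a chain of the T cell receptor complex, read 7.45 and 7.42 in Tcf1 cells, 10.41 in control cells and 7.32 in LMPPs and did not pass against LMPPs. The other 5 of 6 T lineage markers, Il2ra and the gate gene Thy1 among them, were higher in Tcf1 cells than in LMPPs (median of the 6 differences 2.31), and 3 of the 6 were lower than in control cells. Gata3, a factor of T cell specification, was higher than in LMPPs by 2.54, Bcl11b, a factor of commitment, by 2.08 and Cd3g, another chain of the complex, by 0.94. Tcf7, the gene for Tcf1, has no probe set of its own and is not analysed here. In bulk RNA, fewer cells of a type and less RNA per cell cannot be told apart.

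Among the 7 factors, Irf8 fell in Tcf1 cells against LMPPs and no other passed the test. Of the 7, 1 was lower and 0 were higher (adjusted p under 0.05, limma with Benjamini-Hochberg adjustment over all genes), where 3.06% of all genes passed, 1.31% lower and 1.75% higher. Against control cells, 0 of the 7 passed in limma, with 2 (Cebpa and Irf8) at an unadjusted p under 0.05, where 4.38% of all genes passed, 2.49% lower and 1.9% higher. In control cells, Irf8 and Cebpa read at least 2-fold below LMPPs and no factor read 2-fold above, where 5.53% of all genes were 2-fold apart, 2.36% lower and 3.17% higher. That comparison set 1 array against 1 and has no replicate check. It shares the LMPP array with the comparison of Tcf1 cells with LMPPs. The median of the 7 differences was 0.03 for Tcf1 cells minus LMPPs, 0.28 for Tcf1 minus control cells and -0.20 for control cells minus LMPPs, against 0.0047, 0.02 and -0.01 over all genes. Control cells read below LMPPs in 6 of the 7, where 52.7% of all genes did. Both Tcf1 arrays were below LMPPs in 3 of the 7 (Irf8, Cebpa and Cebpe; 36.8% of all genes) and above control cells in 6, all but Cebpe (38.6% of all genes). Cebpe, Batf3 and Zbtb46 stayed within 0.3 of LMPPs in control cells and in the mean of Tcf1 cells, 3 of the 7, where 62% of all genes did.

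**Figure D1:**
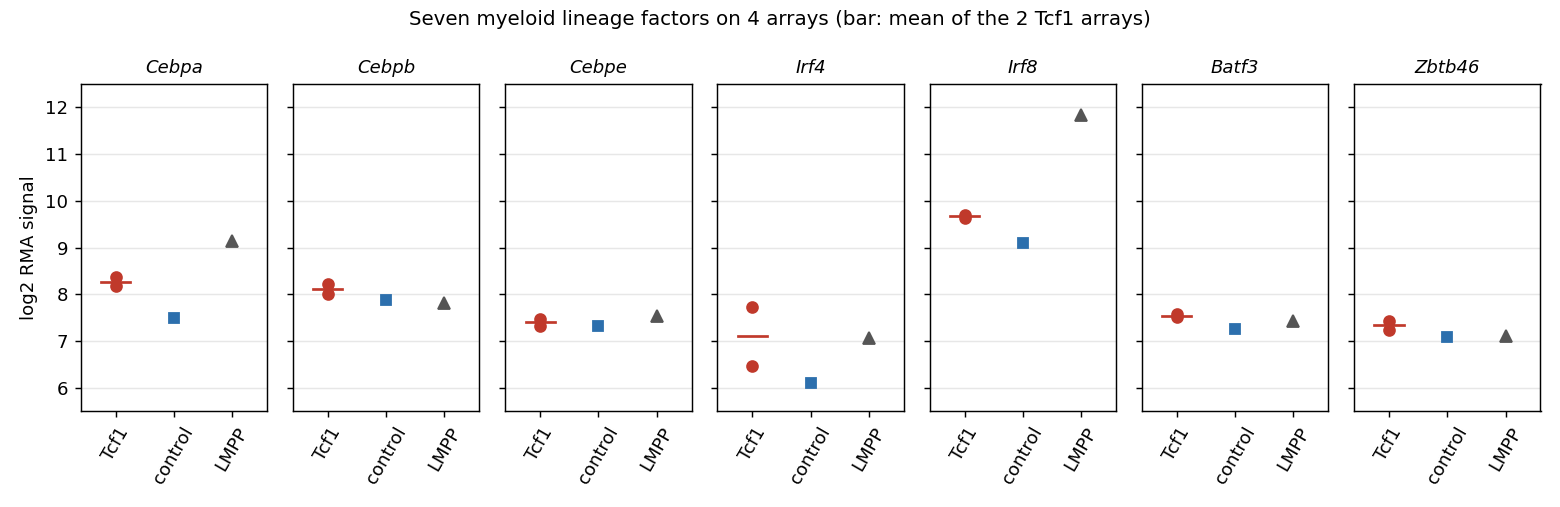
Log2 RMA signal (vertical axis) of each factor in the 2 Tcf1 arrays (circles, with a bar at their mean), the control array (square) and the LMPP array (triangle). Irf8 and Cebpa read highest in LMPPs and lowest in control cells, the 2 Irf4 circles lie 1.28 apart, and the other 4 factors vary by 0.40 or less over the arrays.

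Irf8, which directs monocytes and dendritic cells, had log2 signals of 9.63 and 9.69 in Tcf1 cells, 9.11 in control cells and 11.82 in LMPPs. Every T lineage array was well below the LMPP array, and the Tcf1 pair, which lay 0.06 apart, sat between control cells and LMPPs. Irf8 fell by 2.16 in Tcf1 cells against LMPPs (SE 0.16, adjusted p = 0.00133, limma), a level 4.47-fold higher in LMPPs. With either Tcf1 replicate alone the difference was -2.13 or -2.19. Of all genes, 32 (0.16%) differed downward by as much or more. The call depended on the genes tested, since over all 35399 probe sets the adjusted p was 0.177. The control array read 2.72 below the LMPP array. Tcf1 cells exceeded control cells by 0.56 (95% interval 0.17 to 0.94, unadjusted p = 0.0112, adjusted p = 0.142, limma), so the order of these groups was not separated over all genes.

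Cebpa, the factor of the granulocyte-monocyte step, followed the same order with smaller distances. It read 8.17 and 8.37 in Tcf1 cells, 7.49 in control cells and 9.14 in LMPPs, and both Tcf1 arrays lay between the others. The difference from LMPPs was -0.87 (SE 0.17, 95% interval -1.28 to -0.46, adjusted p = 0.0518, limma), just short of the threshold. Against control cells it was 0.78 (SE 0.17, 95% interval 0.37 to 1.19, adjusted p = 0.0616, limma). Both differences passed once quantile normalization was repeated (-0.77 with an adjusted p of 0.0453 and 0.79 with an adjusted p of 0.0351), after median centring and over the brighter genes (limma), so the side of the threshold rests on the processing. Control cells read 1.65 below LMPPs, and 175 genes (0.878%) read as far below or further. Both Tcf1 arrays below LMPPs and above control cells, as in Irf8 and Cebpa, was found in 2 of the 7 factors and in 11.5% of all genes.

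Cebpb and Cebpe, the other C/EBP genes among the 7, showed little movement. Cebpb read 8.02 and 8.21 in Tcf1 cells, 7.87 in control cells and 7.81 in LMPPs. The difference from LMPPs was 0.30 (95% interval -0.11 to 0.71, adjusted p = 0.54, limma). That from control cells was 0.24 (-0.17 to 0.66, adjusted p = 0.697). Cebpe read 7.48 and 7.33 in Tcf1 cells, 7.33 in control cells and 7.53 in LMPPs, and the Tcf1 pair spanned the control value. Its differences were -0.13 from LMPPs (95% interval -0.53 to 0.27) and 0.07 from control cells (-0.33 to 0.47). Neither passed (adjusted p = 0.883 and 0.955, limma).

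Irf4, the relative of Irf8, was the factor on which the Tcf1 replicates parted. It read 6.46 in Tcf1 replicate 1 and 7.74 in replicate 2, against 6.11 in control cells and 7.07 in LMPPs. The replicates lay on either side of the LMPP value, 2.42-fold apart, while both were above control cells. Replicates at least 2-fold apart were seen in 1 of the 7 factors and in 0.326% of all genes. Only 19 genes (0.0953%) had replicates at least as far apart as Irf4, and in 11 of them (0.0552%) replicate 2 was the higher. The mean difference from LMPPs was 0.03 (SE 0.45, 95% interval -1.05 to 1.11, adjusted p = 0.994, limma), with -0.61 from replicate 1 alone and 0.67 from replicate 2 alone. Against control cells it was 0.99 (95% interval -0.09 to 2.07, adjusted p = 0.413, limma), with 0.35 and 1.63 from replicates 1 and 2 alone. Control cells read 0.97 below LMPPs, just under 2-fold. A 2-fold difference in either direction from LMPPs lies inside the interval of Irf4.

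Batf3, the partner of Irf8 in type 1 dendritic cells, read 7.57 and 7.52 in Tcf1 cells, 7.26 in control cells and 7.42 in LMPPs. The differences were 0.12 from LMPPs (95% interval -0.26 to 0.51, adjusted p = 0.882, limma) and 0.28 from control cells (-0.10 to 0.67, adjusted p = 0.563). Zbtb46, the marker of conventional dendritic cells, read 7.25 and 7.43 in Tcf1 cells, 7.08 in control cells and 7.11 in LMPPs. It differed by 0.23 from LMPPs (95% interval -0.18 to 0.64, adjusted p = 0.687, limma) and by 0.26 from control cells (-0.15 to 0.67, adjusted p = 0.659). Both Tcf1 arrays read above both other arrays for these genes and for Cebpb, by margins that did not pass. A range under 1 log2 unit over the 4 arrays, as in these genes and Cebpe, held for 91.5% of all genes. No detection call comes with the values, so it is not known which of these dim readings lie above background.

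**Figure D2:**
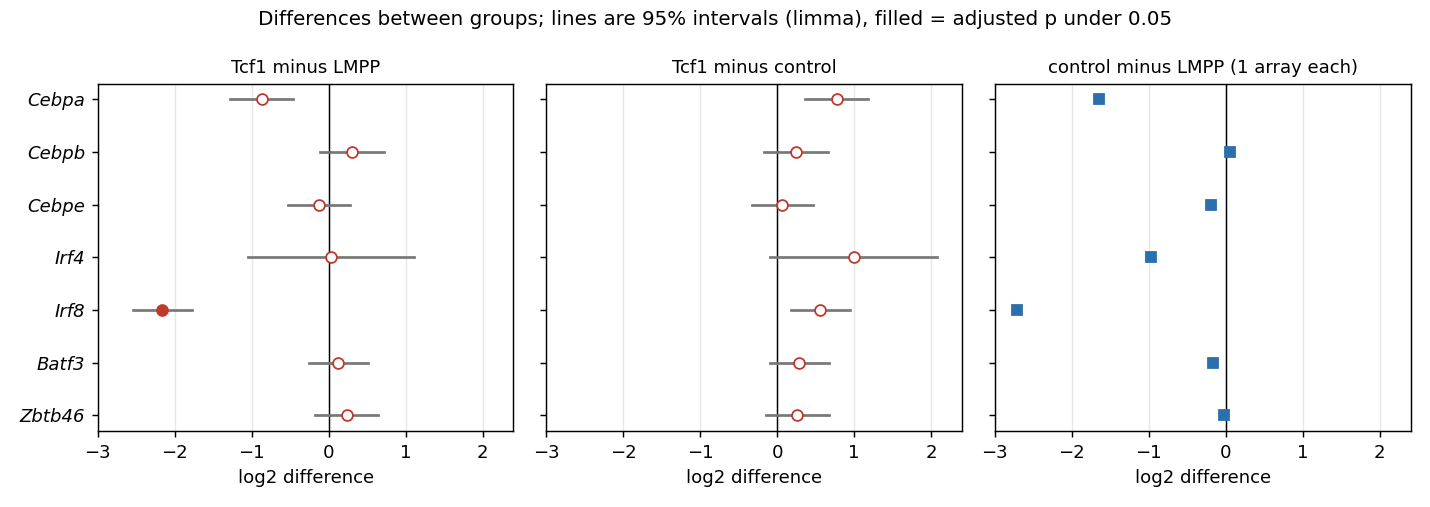
Log2 differences (horizontal axis) of the 7 factors for Tcf1 minus LMPP, Tcf1 minus control and control minus LMPP. Lines are 95% intervals from limma, filled circles passed at an adjusted p under 0.05, and squares are 1 array against 1. The filled circle is Irf8 at -2.16, and the widest intervals are those of Irf4.

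The rest of the C/EBP and IRF families was read from lists of relatives. Of 5 further C/EBP genes and dimer partners on the array, 0 passed against LMPPs in limma, and Cebpd, induced in stress and inflammation, was higher than in control cells by 0.85 (SE 0.18, adjusted p = 0.049, limma). Cebpd read 6.96 and 7.19 in Tcf1 cells, 6.23 in control cells and 6.69 in LMPPs. With quantile normalization repeated, 0 of the 5 passed. Of 5 regulators of C/EBP protein, 0 passed against LMPPs and Trib2, a pseudokinase that directs C/EBP alpha to degradation, fell by 1.00 against control cells (SE 0.18, adjusted p = 0.0315, limma). Trib2 read 6.70 and 6.98 in Tcf1 cells, 7.84 in control cells and 7.20 in LMPPs. After repeated quantile normalization and after median centring, 2 of these 5 were lower than in control cells.

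Irf7 and Irf9, relatives of Irf8, moved the opposite way. Irf7, which drives type I interferon genes, rose by 1.99 in Tcf1 cells against LMPPs (SE 0.16, adjusted p = 0.00167, limma), with 8.75 and 8.65 in Tcf1 cells, 8.08 in control cells and 6.71 in LMPPs. Irf9, the DNA-binding part of the interferon-activated complex ISGF3, rose by 1.04 (SE 0.16, adjusted p = 0.0204), with 10.16 and 10.11 in Tcf1 cells, 9.83 in control cells and 9.10 in LMPPs. In both genes every T lineage array was above the LMPP array. Of 6 further IRF genes, 2 were higher and 0 lower than in LMPPs. Irf1, an interferon-induced activator, fell by 1.12 against control cells (SE 0.22, adjusted p = 0.0425, limma), and the other 5 did not pass there. Irf5, a factor of macrophages and dendritic cells, read 8.61 and 9.28 in Tcf1 cells, 7.90 in control cells and 9.39 in LMPPs and passed in neither test. Of 14 interferon response genes, a list that holds Irf7 itself, 10 (Irf7 among them) were higher and 0 lower than in LMPPs and 6 were higher and 0 lower than in control cells. Rtp4, an interferon-induced gene, rose by 4.15 against LMPPs and Oas2, a sensor of viral RNA, by 3.67. Control cells also read above LMPPs, by 3.40 for Rtp4 and 1.49 for Oas2. Between Tcf1 and control cells Rtp4 did not pass (0.75, adjusted p = 0.102, limma), and Oas2 did (2.18, adjusted p = 0.00699, limma). The part of an interferon response in the Irf7 and Irf9 values was not tested.

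**Figure D3:**
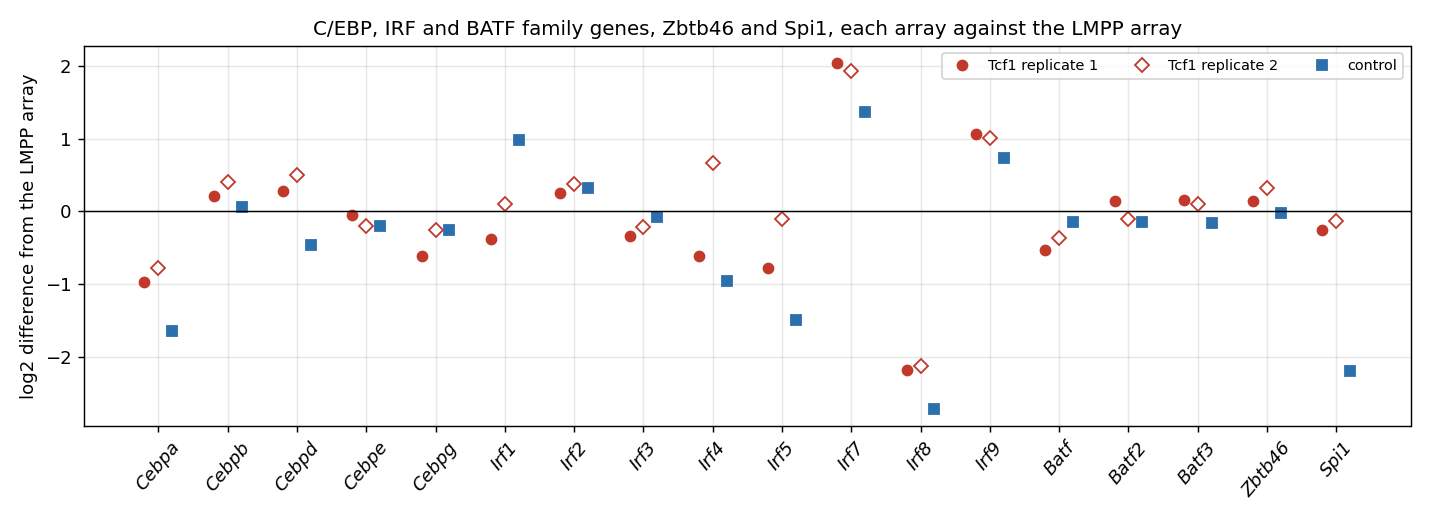
Log2 difference from the LMPP array (vertical axis) of C/EBP, IRF and BATF family genes, Zbtb46 and Spi1 in Tcf1 replicate 1 (filled circles), Tcf1 replicate 2 (open diamonds) and control cells (squares). Irf8 lies below 0 and Irf7 and Irf9 above 0 in all 3 arrays, while Spi1 is near 0 in Tcf1 cells and at -2.20 in control cells.

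Of 10 partners of Irf4 and Irf8, 0 passed against LMPPs in limma. Spi1, which encodes PU.1, was higher than in control cells by 2.01 (SE 0.17, adjusted p = 0.00134, limma), with 11.48 and 11.61 in Tcf1 cells, 9.54 in control cells and 11.74 in LMPPs. Both Tcf1 arrays read just below the LMPP array for Spi1, and the control array far below it. Jun, an AP-1 subunit that can pair with BATF proteins, fell by 1.14 against control cells (SE 0.19, adjusted p = 0.0221). Batf, the relative of Batf3, read 7.16 and 7.33 in Tcf1 cells, 7.56 in control cells and 7.70 in LMPPs and passed in neither comparison.

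Granulocyte genes that C/EBP factors drive were split. Of 19, 6 were lower and 1 higher in Tcf1 cells than in LMPPs, with a median of -0.51. Against control cells, 6 were higher, Cebpd from the C/EBP list among them, and 1 lower, with a median of 0.38. Over all genes 1.31% were lower and 1.75% higher than in LMPPs, and 1.9% higher and 2.49% lower than in control cells. Ngp, a neutrophil granule protein, fell by 3.73 against LMPPs and read 5.47 and 5.37 in Tcf1 cells, 5.34 in control cells and 9.15 in LMPPs. Elane, neutrophil elastase, read 9.07 and 9.42 in Tcf1 cells, 7.58 in control cells and 11.77 in LMPPs, the order of Irf8 and Cebpa, and passed in both comparisons (-2.53 and 1.66). Prtn3, proteinase of the primary granules, and Ms4a3, a gene of granulocyte-monocyte progenitors, did not pass against LMPPs (-0.51 and -0.54) and were above control cells by 2.82 and 3.71. Mmp8, a neutrophil collagenase, was higher than in LMPPs by 2.53 and than in control cells by 4.99. Both Tcf1 arrays lay below LMPPs and above control cells in 11 of the 19, where 11.5% of all genes did. The summed linear signal of the list was 12207 and 12027 in Tcf1 cells, 5185 in control cells and 20173 in LMPPs, and RMA values leave no marker at 0. The part of granulocyte precursors among the cells in the Irf8 and Cebpa values was not tested. Mac1, a protein of the exclusion gate, is encoded by Itgam, which read 7.44 and 7.70 in Tcf1 cells, 7.03 in control cells and 8.25 in LMPPs and passed in neither comparison.

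Monocyte and macrophage genes were more often higher than lower in Tcf1 cells in both comparisons. Of 16, 6 were higher and 1 lower in Tcf1 cells than in LMPPs (median 0.59), and 11 were higher and 1 lower than in control cells (median 1.57). Control cells read at least 2-fold below LMPPs in 7 of the 16 and 2-fold above in 2, and both Tcf1 arrays were above control cells in 14, as for Irf8. Only 2 of the 16 had both Tcf1 arrays below LMPPs and above control cells, the order of Irf8, where 11.5% of all genes did. Ncf1, a subunit of the phagocyte oxidase complex, was 1 of these 2 and was named after its values were seen. Ncf1 read 9.57 and 9.90 in Tcf1 cells, 8.20 in control cells and 11.16 in LMPPs. Adgre1, the macrophage surface receptor F4/80, read 11.10 and 11.43 in Tcf1 cells, 6.51 in control cells and 6.89 in LMPPs, a rise of 4.37 against LMPPs. Lyz2, a lysozyme of macrophages and granulocytes, read 11.59 and 12.01 in Tcf1 cells, 7.71 in control cells and 9.66 in LMPPs, and Cybb, a subunit of the phagocyte oxidase, read 10.16 and 10.59 in Tcf1 cells, 5.98 in control cells and 8.92 in LMPPs. Klf4, a factor of monocytes, fell by 2.77 against control cells and differed from LMPPs by -0.01. The summed linear signal of the list was 14847 and 17850 in Tcf1 cells, 4659 in control cells and 8577 in LMPPs. Its part in the values of the 7 factors was not tested.

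Dendritic cell genes were read by subset. Of 11 genes of type 1 conventional dendritic cells, the subset that needs Irf8 and Batf3, 3 (Itgae, Naaa and Ppt1) were higher and 0 lower than in LMPPs, with a median of 0.15, and 1 (Naaa) was higher and 1 (Itgae) lower than in control cells. Clec9a and Xcr1, surface receptors that define this subset, did not pass in either comparison and varied by 0.29 (Clec9a) and 0.31 (Xcr1) over the arrays, with Clec9a at 5.41 and 5.24 in Tcf1 cells, 5.54 in control cells and 5.51 in LMPPs. Itgae is an integrin chain of T cells too, and Naaa and Ppt1 encode lysosomal enzymes. The part of type 1 dendritic cells in these values was not tested. Of 8 genes of type 2 conventional dendritic cells, which use Irf4, 3 were higher and 0 lower than in LMPPs and 4 higher and 1 lower than in control cells. Mgl2, a lectin of macrophages and dendritic cells, read 10.15 and 10.004 in Tcf1 cells, 5.98 in control cells and 7.74 in LMPPs. Cd209a, a lectin of this subset, passed in neither comparison (-0.06 and 0.42).

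Of 8 genes common to dendritic cells, 1 (Ccr7) was higher and 1 (Flt3) lower than in LMPPs, which were sorted as Flt3 high. Against control cells, 5 (Flt3, Cd74, H2-Aa, H2-Ab1 and H2-Eb1) were higher and 0 lower. Cd74, the chaperone of MHC class II molecules, read 10.18 and 11.32 in Tcf1 cells, 6.22 in control cells and 11.21 in LMPPs. All 8 read higher in Tcf1 replicate 2 than in replicate 1, as Irf4 did, by a median of 0.78, against 0.08 over all genes, of which 13530 of 19938 were higher in replicate 2. H2-Aa (1.37) and H2-Ab1 (1.31), chains of MHC class II, are among the 11 genes, Irf4 included, in which replicate 2 exceeded replicate 1 by at least the Irf4 distance, a remark made after their values were seen. The part of MHC class II positive cells in the Irf4 difference between replicates was not tested. Of 7 plasmacytoid dendritic cell genes, 3 (Ly6d, Cox6a2 and Tcf4) were lower and 1 (Irf7) higher than in LMPPs, and 1 (Cox6a2) was higher and 1 (Ly6d) lower than in control cells. Cox6a2, an oxidase subunit abundant in these cells, read 10.07 and 9.90 in Tcf1 cells, 8.37 in control cells and 11.28 in LMPPs, between the others as Irf8 was. Siglech, a surface lectin that defines them, read 7.70 and 7.85 in Tcf1 cells, 7.03 in control cells and 8.30 in LMPPs and passed in neither comparison.

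**Figure D4:**
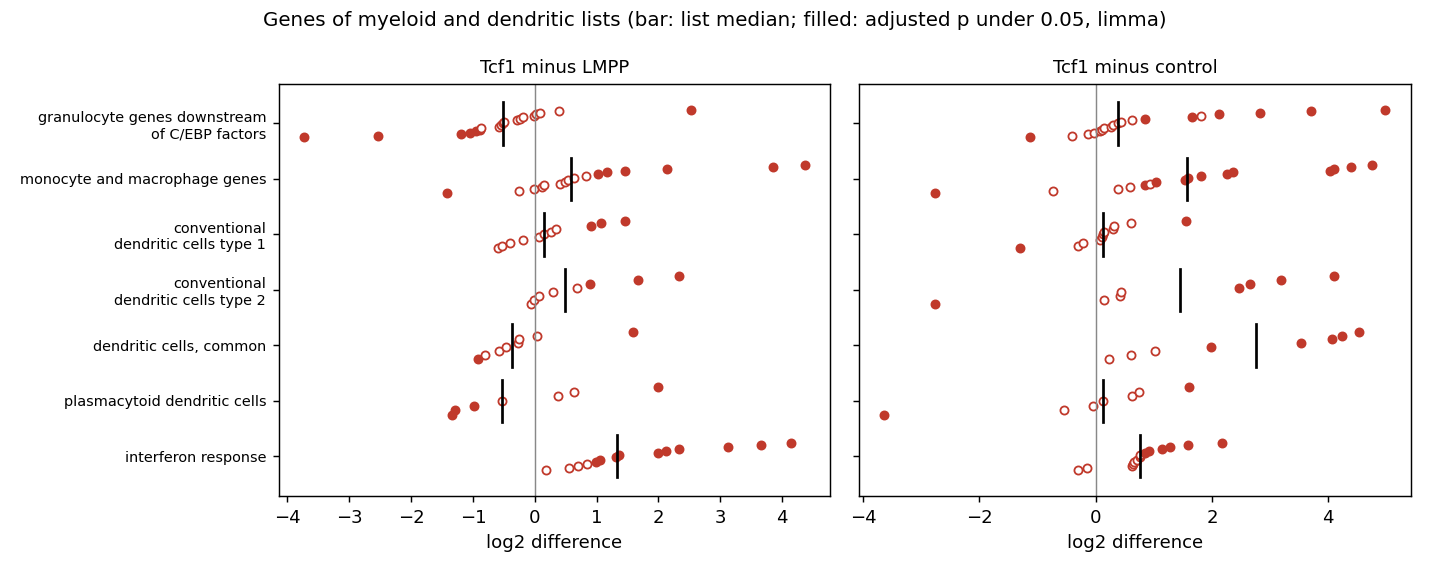
Log2 differences (horizontal axis) of single genes in 7 lists for Tcf1 minus LMPP and Tcf1 minus control. Bars are list medians and filled circles passed at an adjusted p under 0.05 in limma. Granulocyte genes lie mainly below 0 against LMPPs (median -0.51), and monocyte and macrophage genes lie mainly above 0 against control cells (median 1.57).

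**Figure D5:**
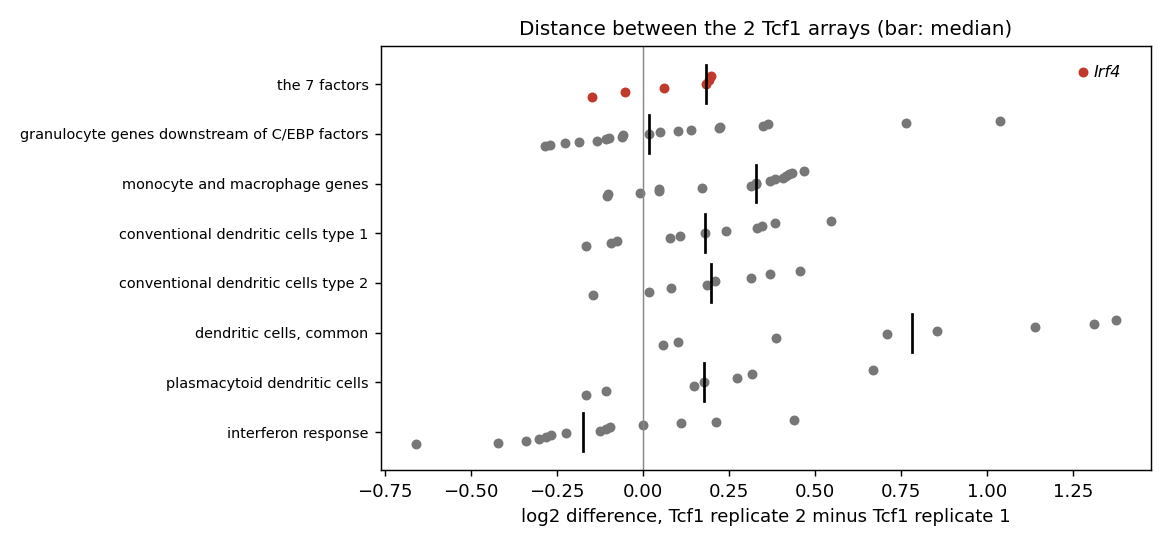
Log2 difference between Tcf1 replicate 2 and Tcf1 replicate 1 (horizontal axis) for the 7 factors and 7 lists, with bars at the medians. Irf4 stands at 1.28, the other 6 factors lie between -0.15 and 0.20, and the common dendritic list has a median of 0.78.

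For the 3 factors that varied by at least 1 log2 unit, the genes most like them were found by the root mean square distance between values centred on each gene's mean, over 4 arrays in 3 groups. With so few arrays many genes share a pattern by this measure: 363 genes lay within 0.3 of Cebpa, 29 of Irf8 and 21 of Irf4. Nearest to Irf8 were Gcnt2 (0.09), Cth (0.14), Abcb1b (0.16), Tmem119 (0.16) and Vldlr (0.17), with differences of -2.43 to -1.86 between Tcf1 cells and LMPPs. Nearest to Cebpa were Serpinf1 (0.03), Cd300a (0.05), Paqr3 (0.05), Aldh2 (0.06) and Slc35d3 (0.06), with -0.82 to -0.75. Nearest to Irf4 were Kynu (0.20), Clec7a (0.21), Ccl17 (0.22), Klri1 (0.23) and Dhdh (0.23), each higher in Tcf1 replicate 2 than in replicate 1 by 0.75 to 0.96. All these genes were picked for likeness to a factor, so their differences, and the higher replicate 2 in the Irf4 set, follow from the choice.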

How the data were processed

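Biotin-labelled cDNA of 4 RNA samples was hybridised to 1 array each, after amplification by an Ambion kit, per the labels' protocols. The deposited log2 values came from RMA and Partek 6.5, per the submitters' processing notes; base 2 was inferred from RMA and a range of 3.44 to 14.45. No source used here names a genome build. Detection calls were not used here.

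Of 35399 probe sets, 21789 had 1 gene symbol, 1621 several and 11989 none. The probe set with the highest mean was used for the 999 genes with several, which left 19938 genes, with no filter on dim ones. A limma (3.58.1) model of group means, moderated by empirical Bayes, was run under R 4.3.3. Residual degrees of freedom were 1 and prior ones 5.78 (SD 0.141). P-values rest on the spread of the Tcf1 pair, labelled as biological replicates. For each gene that spread was drawn towards 1 pooled over all genes. With more prior than residual degrees of freedom, the pooled spread weighed more than the gene's own. The fit was tested on simulated data in which all 4 arrays had the same spread for a gene. That test cannot show whether the lone control and LMPP arrays vary as the Tcf1 pair did.

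The factors, lists and tests were chosen with earlier results of these data known. The lists held 117 entries, of which 109 had a gene on the array. Genes named from lists are up to 6 per list with the largest differences in either test; Cd209a, Clec9a, Xcr1 and the marker genes were added as defining markers. Promoter windows are from RefSeq (GRCm38.p6), matched by Entrez number; motifs were chosen after the values were seen. Alternatives were another scaling, filter or prior, all probe sets, and either Tcf1 replicate alone. A mean over the probe sets of a gene was computed wrongly, and its results are not given. Some of its values remain in the total of 181 unchanged values below.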

Additional observations from a re-analysis of the deposited data

How the results depend on the processing

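The fall of Irf8 against LMPPs passed in limma under each alternative scaling, filter and prior. It did not pass over all 35399 probe sets (-2.16, adjusted p = 0.177, limma). There 0 of the 7 factors and 0 genes passed in either comparison, and 3317 and 3702 probe sets had an unadjusted p under 0.05 (limma). The cause was not tested, but probe sets without a symbol had a wider Tcf1 pair (SD 0.55, against 0.24 for genes). Cebpa passed in 4 alternatives. Against LMPPs its difference was -0.91 after median centring, -0.77 after renewed quantile normalization and -0.87 over genes above the 25th percentile or above the median. Against control cells it was 0.73, 0.79 and 0.78 in the same settings. The 7 factors then counted 2 lower than in LMPPs and 1 higher than in control cells. Irf4 changed sign against LMPPs, to -0.012 after median centring and -0.064 after quantile normalization. With either Tcf1 replicate alone, differences from LMPPs ran from -2.19 to -2.13 for Irf8, -0.97 to -0.78 for Cebpa, -0.61 to 0.67 for Irf4, 0.20 to 0.40 for Cebpb, -0.20 to -0.05 for Cebpe, 0.10 to 0.15 for Batf3 and 0.14 to 0.32 for Zbtb46. Those from control cells ran from 0.53 to 0.59, 0.68 to 0.87, 0.35 to 1.63, 0.15 to 0.34, -0.01 to 0.14, 0.26 to 0.31 and 0.17 to 0.35 in the same order.

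Genes called between Tcf1 cells and LMPPs numbered 610, or 1456 after median centring, 1196 above the 25th percentile, 1189 above the median, 936 with an intensity trend in the prior and 384 with the mean of probe sets. Between Tcf1 and control cells they numbered 874, or 1646 after median centring, 1437 above the 25th percentile and 559 with the mean of probe sets. Of the calls against LMPPs 57.2% were higher, and 41.7% after median centring. No paired analysis was possible because the groups compared share fewer than 2 replicate numbers. Of the values compared, 181 stayed on their side of the threshold, within the spread or, for counts of genes, close enough to be marked unchanged. That last mark was loose, since a shift from 874 to 1295 genes received it. Some of the 181 came from the wrongly computed mean over probe sets. Another part of the 181 was fixed in advance and tests nothing. A difference from either Tcf1 replicate alone always lies within the SD of the pair around its mean. Irf4 was thus counted as unchanged against LMPPs, with -0.61 and 0.67 around a mean of 0.03. A filter on dim genes likewise cannot change the difference of a factor between the control and LMPP arrays. No detection calls were used, so dim signals cannot be told from background.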
